A study of Mus musculus with 36 samples.

Results

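The 10 genes described here encode secreted carriers, a hormone co-receptor, a vitamin receptor, channels, transporters and a transcription factor of the choroid plexus epithelium: Ttr, Kl, Folr1, Aqp1, Slc4a5, Slc13a4, Kcnj13, Kcne2, Clic6 and Otx2. They were taken by gene symbol and are 10 of the 55450 genes annotated in the 1 month tables, of 53379 at 2 months and of 54146 at 3 months. All 10 passed the filter on low counts at each age. The choroid plexus is a folded tissue inside the brain ventricles, in which a sheet of epithelial cells sealed by tight junctions covers a vascular stroma. The epithelium makes the cerebrospinal fluid by moving sodium, chloride and bicarbonate from blood to ventricle, with water following through aquaporin channels, and it releases carrier proteins and passes vitamins into the fluid. Plexus tissue lies in the ventricles of the forebrain and in the ventricle beneath the cerebellum.

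RNA-seq libraries were made from 2 regions, forebrain/midbrain (called F/M) and cerebellum (called Cb), of mice aged 1, 2 and 3 months, with 3 control and 3 Tpp1-/- mice per age and region, 12 groups and 36 libraries in all. Tpp1 encodes the lysosomal tripeptidyl peptidase that is lost in late infantile neuronal ceroid lipofuscinosis (cLINCL, CLN2 disease), and the Tpp1-/- mice carry a germline disruption of the gene made by targeting, so that every cell type carries it. The line was kept by crossing heterozygotes, and the controls were unaffected siblings of the same age: replicate 3 of the 1 month controls was Tpp1+/- in each region, and all other controls were wild type (wt). The labels give 1 female and 2 male mice to each group of 1 and 3 months and males alone to the groups of 2 months. Libraries held 10609896 to 29942380 reads assigned to genes (median 21049839), and the smallest count of a member was 23 reads, for Kcne2 in a control F/M library of 2 months. Levels are given as CPM, a gene's counts scaled to a common library size after TMM normalization, in the order of replicates 1, 2 and 3, and a gene was called when edgeR's adjusted p lay under 0.1 and the fold change was at least 1.5. Tpp1 itself fell in the Tpp1-/- libraries in all 6 comparisons of age and region, by 2.12 on the log2 scale in F/M at 2 months and by 1.31 in Cb at 3 months, its widest and its narrowest change. In libraries of whole brain regions, more plexus tissue in a sample and more RNA per plexus cell cannot be told apart.

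The members lie on 7 chromosomes of GRCm38, the mouse build of the deposited counts. Those whose level was called in both regions at 2 months are Aqp1 (ENSMUSG00000004655, chromosome 6, 55336432 to 55348555), Slc4a5 (ENSMUSG00000068323, chromosome 6, 83219828 to 83304945), both on the plus strand of the same chromosome, and Kl (ENSMUSG00000058488, chromosome 5, 150952607 to 150993817, plus strand). Slc13a4 is also on chromosome 6, on the minus strand, and Kcne2 and Clic6 lie within a short stretch of chromosome 16. Kcnj13 overlaps Gigyf2 on the other strand, Folr1 overlaps Anapc15 and Otx2 overlaps Otx2os1 in the same way, and Ttr overlaps an opposite-strand gene in the annotations used at 2 and 3 months, while Clic6 and Otx2 each also overlap a gene on their own strand, with which counting could split reads. The strand setting of the counting was 1 at 1 and 3 months and 2 at 2 months per the file headers.

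Promoter windows of 7 of the 10 members, 11 windows in all, were found in RefSeq (GRCm38.p6, from 250 bases before to 50 after the annotated start). Given in lower case, 5′ to 3′, are those of the 3 members called in both regions at 2 months, that of Kcnj13, and the 1 window of Otx2 with a match to the OTX2-type homeodomain motif. Capitals mark TAATCC or TATAAA on either strand. TAATCC was found in 1 of the 11 windows, 211 bases before the start of Otx2 itself, and in 7.06% of all 32851 windows of this length. The TATA box letters TATAAA were found in 3 of the 11, among them 29 bases before the start of Kcnj13, and in 13.6% of all windows. The start of Slc4a5 in RefSeq lies inside the gene as the counting annotation draws it. A match describes letters in this window, and a missing match says only that the letters are not there.
Aqp1, chr6:55336049-55336348, plus strand: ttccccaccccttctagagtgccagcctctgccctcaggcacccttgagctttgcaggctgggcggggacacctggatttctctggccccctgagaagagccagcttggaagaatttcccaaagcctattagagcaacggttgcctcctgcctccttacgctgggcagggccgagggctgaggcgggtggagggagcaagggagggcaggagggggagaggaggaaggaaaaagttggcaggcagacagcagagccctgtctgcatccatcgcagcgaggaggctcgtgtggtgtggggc
Kl, chr5:150952357-150952656, plus strand: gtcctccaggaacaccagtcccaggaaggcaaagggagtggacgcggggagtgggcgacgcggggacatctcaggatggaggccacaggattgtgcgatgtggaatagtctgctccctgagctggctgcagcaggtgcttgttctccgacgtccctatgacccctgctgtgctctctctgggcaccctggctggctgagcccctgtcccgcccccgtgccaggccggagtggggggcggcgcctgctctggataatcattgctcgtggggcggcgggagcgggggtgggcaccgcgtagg
Slc4a5, chr6:83237125-83237424, plus strand: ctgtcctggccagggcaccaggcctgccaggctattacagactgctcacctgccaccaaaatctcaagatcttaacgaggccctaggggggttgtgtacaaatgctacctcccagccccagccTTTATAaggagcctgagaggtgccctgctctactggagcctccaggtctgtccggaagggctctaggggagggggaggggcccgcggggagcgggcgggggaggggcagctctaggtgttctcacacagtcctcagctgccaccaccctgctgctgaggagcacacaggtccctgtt
Kcnj13, chr1:87394680-87394979, minus strand: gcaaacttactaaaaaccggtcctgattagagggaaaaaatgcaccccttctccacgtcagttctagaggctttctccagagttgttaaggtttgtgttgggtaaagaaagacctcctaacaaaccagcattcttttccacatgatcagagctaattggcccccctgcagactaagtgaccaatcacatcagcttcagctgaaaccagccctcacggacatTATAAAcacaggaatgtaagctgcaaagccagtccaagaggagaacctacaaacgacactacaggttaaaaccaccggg
Otx2, chr14:48665060-48665359, minus strand: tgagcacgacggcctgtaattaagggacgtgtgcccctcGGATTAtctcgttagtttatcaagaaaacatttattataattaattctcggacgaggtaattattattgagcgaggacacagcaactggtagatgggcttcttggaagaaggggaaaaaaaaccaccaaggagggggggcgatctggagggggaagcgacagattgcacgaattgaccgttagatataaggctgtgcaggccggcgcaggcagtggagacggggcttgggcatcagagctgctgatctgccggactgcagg

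The plexus genes differed widely in level, and Ttr stood far above the rest. Ttr encodes transthyretin, the carrier of thyroid hormone and retinol-binding protein that plexus epithelium secretes. Per kilobase of exon, which is the scale on which genes can be set side by side, control Cb of 2 months held 795 ± 113 CPM of Ttr (SD, n = 3) and 8.68 ± 0.836 CPM of Clic6, the next in order. Kcnj13 (8.07 ± 0.389) overlapped Clic6, and Kcne2 (5.36 ± 0.554), Slc13a4 (4.84 ± 0.450), Kl (4.65 ± 0.648) and Otx2 (4.44 ± 0.0727) each overlapped its neighbour in the order. Folr1 (3.44 ± 0.738) did not overlap Otx2 just above it or Slc4a5 just below it, though its highest library (4.26) passed the lowest of Kl (4.08). Slc4a5 (1.99 ± 0.155) and Aqp1 (1.92 ± 0.149) overlapped at the bottom. In control F/M of the same age the order was Ttr (303 ± 147 CPM per kilobase), Slc13a4 (3.49 ± 0.491), Clic6 (2.99 ± 1.08), Kcnj13 (2.70 ± 0.580), Kl (1.75 ± 0.452), Folr1 (1.24 ± 0.787), Otx2 (1.08 ± 0.287), Kcne2 (1.03 ± 0.418), Aqp1 (0.896 ± 0.457) and Slc4a5 (0.333 ± 0.0839). There each gene from Slc13a4 to Aqp1 overlapped the next, and only Ttr at the top and Slc4a5 at the bottom stood clear.

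**Figure D1:**
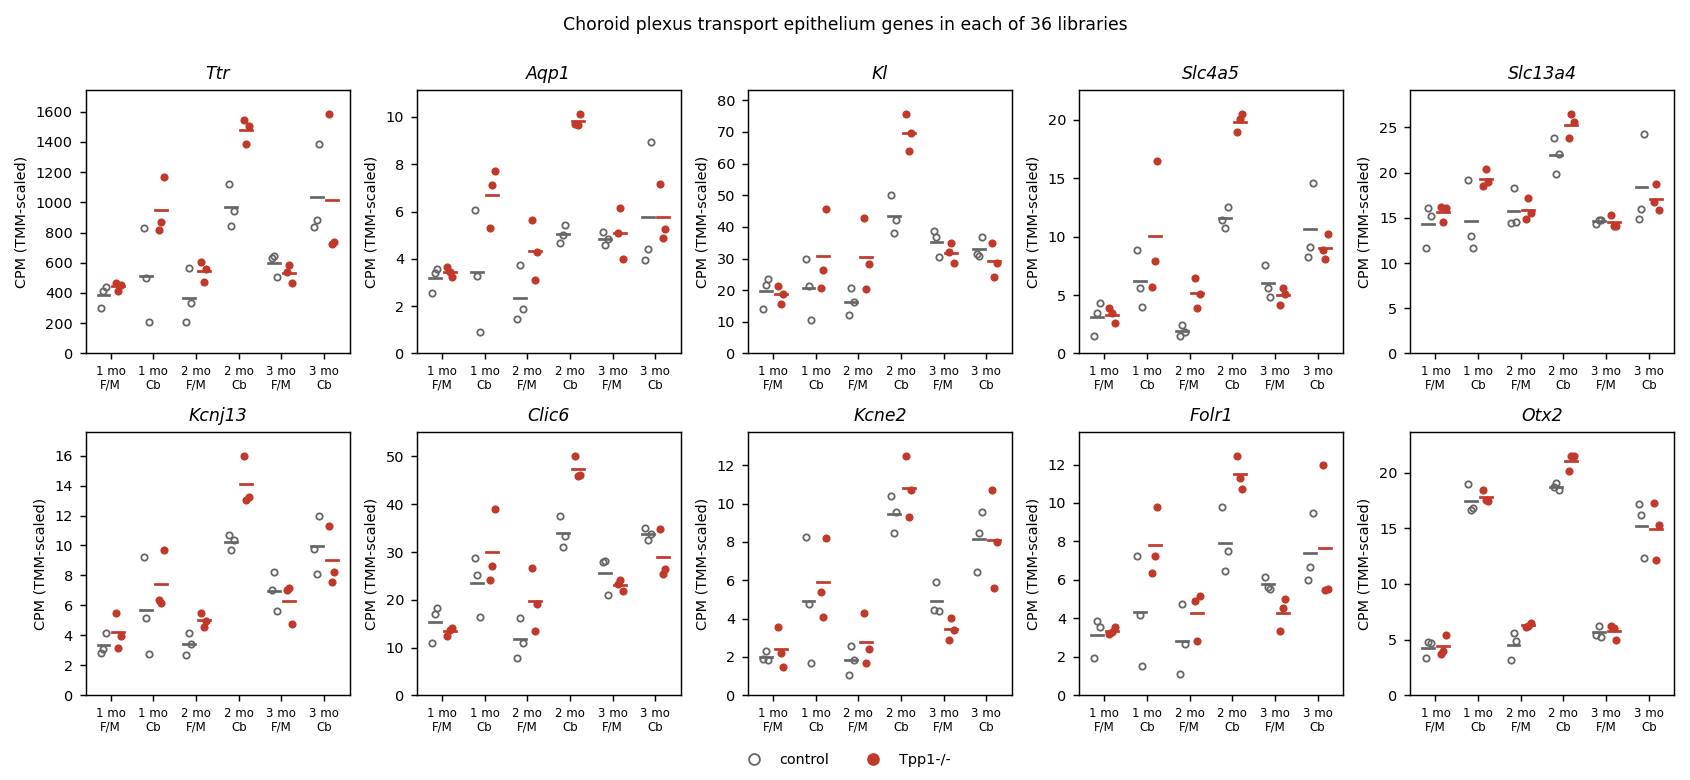
Level of each of the 10 genes in all 36 libraries, in TMM-scaled CPM on a linear axis from 0, by age and region (open grey points, control; filled red points, Tpp1-/-; lines, group means of 3 libraries). In Cb at 2 months the Tpp1-/- points of Aqp1 (9.67 to 10.1 CPM) lie above the control points (4.66 to 5.44 CPM), while in Cb at 1 month 1 control library lies low for most genes.

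Before any comparison, several libraries stood apart from the others of their group in nearly all members at once. The clearest was replicate 3 of the 1 month Cb controls, the Tpp1+/- library, which was the lowest of its group for 9 of the 10 genes. Its Ttr was 209 CPM against 827 and 501 CPM in the wt controls, and its Aqp1 0.906 CPM against 6.08 and 3.29 CPM. Relative to the mean log2 level of the 6 libraries of its age and region, its median over the members was -1.13 (range -2.20 for Aqp1 to -0.072 for Otx2). The Tpp1+/- library of F/M did not share this place, with a median of 0.15. Among the controls of 2 months, F/M replicate 1 was the lowest of its group for all 10 genes (median -0.93) and replicate 2 the highest for all 10 (median 0.19). Replicate 1 of the 1 month F/M controls was the lowest for 9 genes (median -0.38), and replicate 1 of the 3 month Tpp1-/- Cb group was the highest for 8 (median 0.24).

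The spread inside several groups was thus wider than for most genes. The highest library exceeded the lowest by a median of 3.05 times over the members in control Cb of 1 month, against 1.17 times over the 15054 genes with a mean of at least 20 counts there. In control F/M of 2 months the corresponding values were 1.90 and 1.18 times. The tightest group was Tpp1-/- Cb of 2 months, at 1.11 times for the members and 1.13 for all genes, and control Cb of that age was also narrow, at 1.21 times. For 8 of the members this spread was largely shared. With the mean of each age and region taken off, the log2 CPM of a member followed the mean of the other 9 over the 36 libraries with a Pearson r of 0.950 for Ttr, 0.943 for Kl, 0.920 for Folr1, 0.910 for Aqp1, 0.883 for Kcnj13, 0.879 for Clic6, 0.826 for Slc4a5 and 0.797 for Kcne2. The pair that followed less closely were Slc13a4 (0.623) and Otx2 (0.492). For Slc13a4 the value was 0.801 within the 18 control libraries and -0.464 within the 18 Tpp1-/- libraries, where it ran against the other 9. For Otx2 it was 0.457 and 0.131, with 0.758 in F/M and 0.217 in Cb. The other 8 lay between 0.641 (Slc4a5) and 0.926 (Kl) within the Tpp1-/- libraries. These are descriptions of libraries that share depth, dissection and genotype, and they carry no test.

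**Figure D2:**
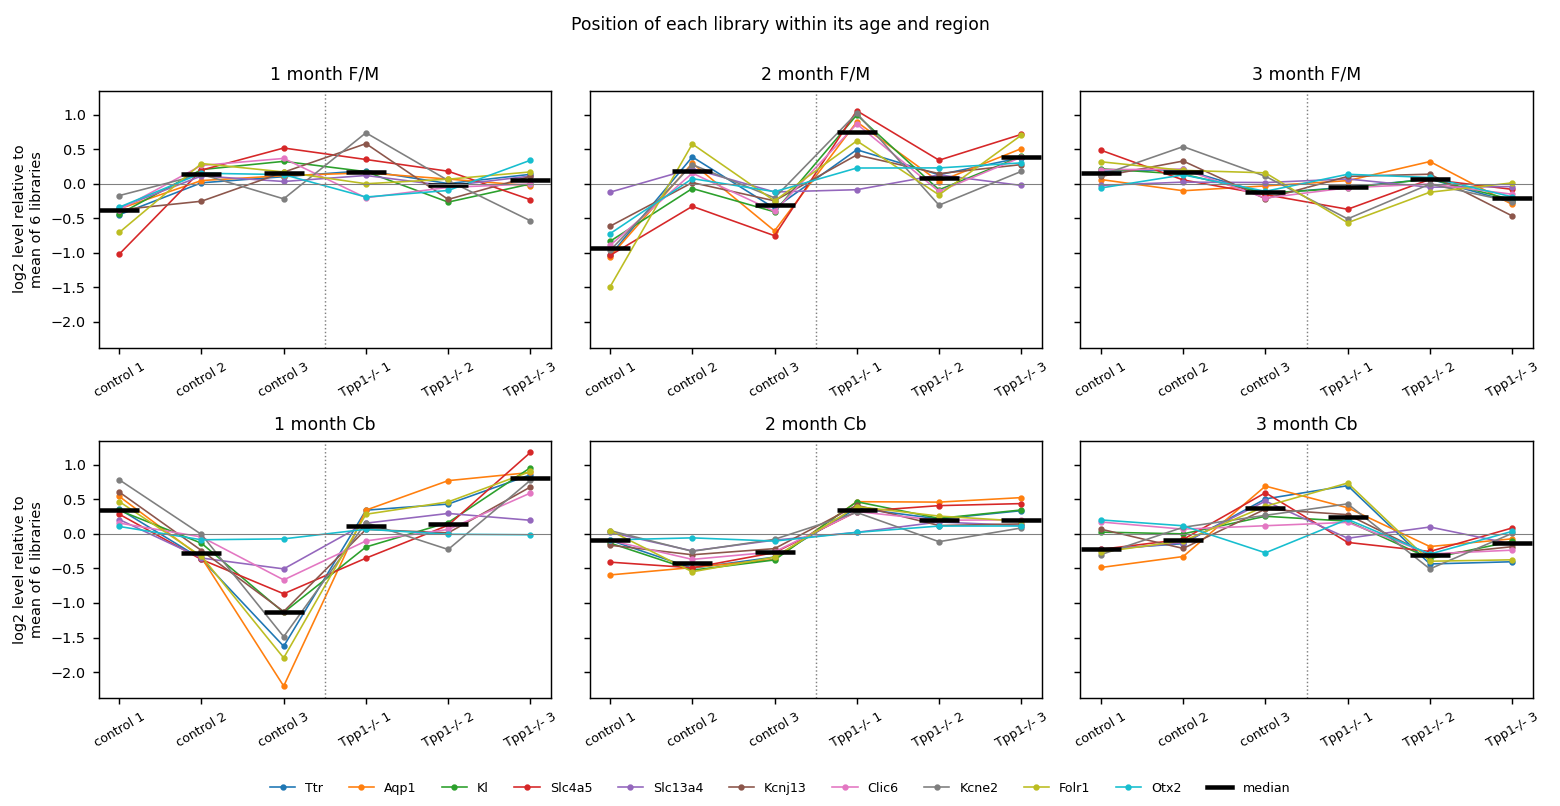
Log2 level of each member in each library relative to the mean of the 6 libraries of the same age and region (coloured lines, 10 genes; black bars, their median). Most lines run together, so that a low or high library is low or high for most genes at once: the deepest median is -1.13, in control 3 of 1 month Cb. Slc13a4 and Otx2 run flatter.

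In Cb at 2 months the plexus genes stood higher in Tpp1-/- mice. All 10 log2 fold changes were above 0, with a median of 0.52 beside 0 over all 17229 genes tested. Aqp1, Slc4a5 and Kl passed the call, 3 of the 10 members, where 0.250% of all genes were called higher. For 9 of the 10 members every Tpp1-/- library lay above every control library, which held for 7.65% of all genes. The study named some of the members as raised at 2 months from these same samples. The counts of members at 2 months are therefore no independent evidence of direction, in either region.

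Aqp1, the water channel of the ventricular face of the epithelium, was at 4.66, 5.02 and 5.44 CPM in control Cb and at 9.71, 9.67 and 10.1 CPM in Tpp1-/- Cb. The groups were far apart and each was tight (log2 fold change 0.96 ± 0.21 (SE), adjusted p = 0.0120 in edgeR's quasi-likelihood test). Slc4a5, an electrogenic sodium bicarbonate cotransporter, was at 11.4, 10.8 and 12.5 CPM in controls, against 18.9, 20.1 and 20.5 CPM in Tpp1-/- mice. Here too no library of one group reached the other (log2 fold change 0.78 ± 0.13 (SE), adjusted p = 9.97e-04). Kl encodes klotho, the membrane protein that serves as co-receptor of the hormone FGF23 and is also shed into the fluid. It stood at 49.98, 38.1 and 42.2 CPM in controls, against 75.6, 64.0 and 69.7 CPM in Tpp1-/- mice, again without overlap (log2 fold change 0.69 ± 0.18 (SE), adjusted p = 0.0552). The call of Kl was lost without control replicate 2, where the adjusted p was 0.291, without control replicate 3 (0.207), without Tpp1-/- replicate 1 (0.199) and without Tpp1-/- replicate 3 (0.149), while those of Aqp1 and Slc4a5 held without each library of the comparison in turn. The call of Kl was also lost with DESeq2 (adjusted p 0.272) and with the replicate block (0.148), so that not all 3 tools called Kl in Cb.

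The other 7 members did not pass the call in this comparison. Kcnj13, the inward rectifier potassium channel Kir7.1, was at 10.7, 9.72 and 10.3 CPM in controls, against 16.0, 13.03 and 13.2 CPM in Tpp1-/- mice. Its adjusted p of 0.0522 was under 0.1, but the log2 fold change of 0.47 ± 0.12 (SE) fell short of the 1.5-fold minimum. Clic6, a chloride intracellular channel protein, stood at 37.5, 31.0 and 33.5 against 50.1, 45.9 and 46.2 CPM. Those groups did not overlap (log2 fold change 0.48 ± 0.18 (SE), adjusted p = 0.285). Ttr had 1118, 845 and 944 CPM in controls, against 1542, 1384 and 1504 CPM in Tpp1-/- libraries. Every Tpp1-/- value was above every control value, and the fold of 1.52 was over the minimum, yet the adjusted p was 0.229.

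Folr1, the folate receptor by which the epithelium carries folate into the fluid, had 9.78, 6.47 and 7.49 CPM in control Cb and 12.4, 11.3 and 10.7 CPM in Tpp1-/- Cb of 2 months. The groups were separate but the adjusted p was 0.448. Otx2, a homeodomain transcription factor that the plexus needs to form and to persist, was at 18.7, 19.1 and 18.5 against 20.2, 21.5 and 21.5 CPM. The gap was narrow and without overlap (log2 fold change 0.16 ± 0.11 (SE), adjusted p = 0.731). Slc13a4, a sodium-dependent sulfate transporter, was at 23.9, 19.8 and 22.1 against 23.9, 26.5 and 25.6 CPM. Its groups touched at this precision, with 23.9 CPM in the highest control and 23.9 CPM in the lowest Tpp1-/- library, and the log2 fold change was 0.21 ± 0.099 (SE). Kcne2, a small subunit that pairs with potassium channels, overlapped at 10.4, 8.45 and 9.54 against 12.5, 9.31 and 10.7 CPM (log2 fold change 0.20 ± 0.20 (SE), adjusted p = 0.861).

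Markers of other tissues were read in the same libraries. The 10 midbrain and thalamus markers summed to 148 to 177 CPM in Tpp1-/- Cb of 2 months and to 238 to 272 CPM in the controls, and 5 of the 10 were called lower, against 1.80% of all genes. Tcf7l2, a transcription factor of the thalamus, was at 31.8, 37.7 and 35.6 CPM in controls and at 3.57, 5.09 and 4.69 CPM in Tpp1-/- Cb (log2 fold change -3.00 ± 0.12), and Gata3 was at 0 in every Tpp1-/- library, against 0.978, 1.67 and 1.05 CPM in the controls. Pou4f1 (log2 fold change -2.96 ± 0.52) and Sox14 (-2.38 ± 0.46) were also among the 5. The 10 ependyma markers summed to 34.3 to 36.8 against 32.5 to 35.2 CPM and the 8 markers of meninges and plexus stroma to 104 to 123 against 106 to 107 CPM, and none of these 18 was called. The 8 macrophage and blood markers summed to 83.1 to 115 against 88.6 to 179 CPM, again with none called. Of the 8 pineal and pituitary markers 3 passed the filter on low counts and none of those was called, and the 8 summed to 1.68 to 2.06 against 1.85 to 2.88 CPM, with the pineal genes Asmt and Crx at 3 counts or fewer in every library. The part of the lower midbrain and thalamus markers in the higher plexus genes was not tested.

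In F/M at 2 months the plexus genes were also higher on average in Tpp1-/- mice, with more overlap. All 10 log2 fold changes were again above 0, with a median of 0.63 beside 0.00388 over all genes. Slc4a5, Kl, Aqp1 and Clic6 were called higher, 4 of the 10 members against 0.650% of all genes. Only Slc4a5, Kcnj13 and Otx2 had every Tpp1-/- library above every control, 3 of 10 against 9.46% of all genes.

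Slc4a5 stood at 1.505, 2.46 and 1.83 CPM in control F/M and at 6.43, 3.91 and 5.07 CPM in Tpp1-/- F/M. The groups were separate, and the gap was the widest of any member in any of the 6 comparisons (log2 fold change 1.43 ± 0.20 (SE), adjusted p = 0.00202, 2.69-fold). Kl was at 12.1, 20.5 and 16.2 against 42.9, 20.3 and 28.3 CPM. Tpp1-/- replicate 2 lay just under control replicate 2, and replicate 1 lay far above all others (log2 fold change 0.93 ± 0.21 (SE), adjusted p = 0.0405). Aqp1 had 1.46, 3.72 and 1.89 CPM in controls, against 5.63, 3.09 and 4.30 CPM in Tpp1-/- mice. Control replicate 2 lay above Tpp1-/- replicate 2 (log2 fold change 0.90 ± 0.26 (SE), adjusted p = 0.0974). Clic6 had 7.85, 16.2 and 11.1 against 26.6, 13.5 and 19.0 CPM, with the same pair of libraries crossing (log2 fold change 0.77 ± 0.21 (SE), adjusted p = 0.0825).

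Ttr was at 209.6, 563 and 336 CPM in control F/M of 2 months and at 605, 471 and 559 CPM in Tpp1-/- F/M, and was not called (log2 fold change 0.56 ± 0.21 (SE), adjusted p = 0.198). The controls alone spanned from the lowest to nearly the highest of the 6 libraries. Kcnj13 was at 2.68, 4.15 and 3.46 against 5.48, 4.54 and 4.97 CPM, with an adjusted p of 0.104. Otx2 was at 3.20, 5.55 and 4.87 against 6.18, 6.18 and 6.504 CPM, with the Tpp1-/- libraries close to each other (log2 fold change 0.47 ± 0.15 (SE), adjusted p = 0.137). Neither passed, although their groups were separate. Folr1 (1.13, 4.73 and 2.67 against 4.88, 2.84 and 5.16 CPM) and Kcne2 (1.08, 2.56 and 1.83 against 4.28, 1.70 and 2.39 CPM) overlapped, with adjusted p of 0.395 and 0.279. Slc13a4 had the smallest fold change, at 15.8 ± 2.22 CPM in controls, against 15.9 ± 1.23 CPM in Tpp1-/- mice (SD, n = 3; log2 fold change 0.0050 ± 0.11).

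The number of members called in this comparison depended on single libraries. It was 2 without control replicate 1, 8 without control replicate 2, 1 without control replicate 3, and 1, 6 and 1 without Tpp1-/- replicates 1, 2 and 3. Slc4a5 was called in each of these, and all the members called were higher in Tpp1-/- mice. When the 6 F/M libraries were fitted alone, Slc4a5 was the 1 member called. The call of Clic6 was lost with DESeq2 (adjusted p 0.133), that of Aqp1 with library totals (0.101), and both with the replicate block (0.158 and 0.160). Beside these values, the midbrain and thalamus markers summed to 349 to 383 CPM in Tpp1-/- F/M against 269 to 338 CPM in controls, the ependyma markers to 37.7 to 39.4 against 25.8 to 37.3 CPM, the stroma markers to 86.6 to 91.4 against 89.5 to 94.9 CPM and the macrophage and blood markers to 84.1 to 106 against 69.1 to 120.0 CPM. Of these 36 markers, Igf2 of the stroma list and Sox14 of the midbrain list were called, both higher, against 0.650% of all genes called higher. Igf2, a growth factor made by plexus and meninges, was at 0.752, 0.483 and 0.786 CPM in controls, against 1.79, 1.07 and 1.43 CPM in Tpp1-/- mice. The 8 pineal and pituitary markers summed to 1.14 to 1.35 against 1.93 to 2.78 CPM, and of the 3 that passed the filter Gh, growth hormone, was called lower (against 0.0871% of all genes), at 0.299, 0 and 0.383 CPM in Tpp1-/- mice against 0.940, 1.30 and 1.57 CPM. The midbrain, ependyma and pituitary sums thus did not overlap between the groups, whereas those of stroma and of macrophages and blood did, and the part of these markers in the higher plexus genes was not tested.

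**Figure D3:**
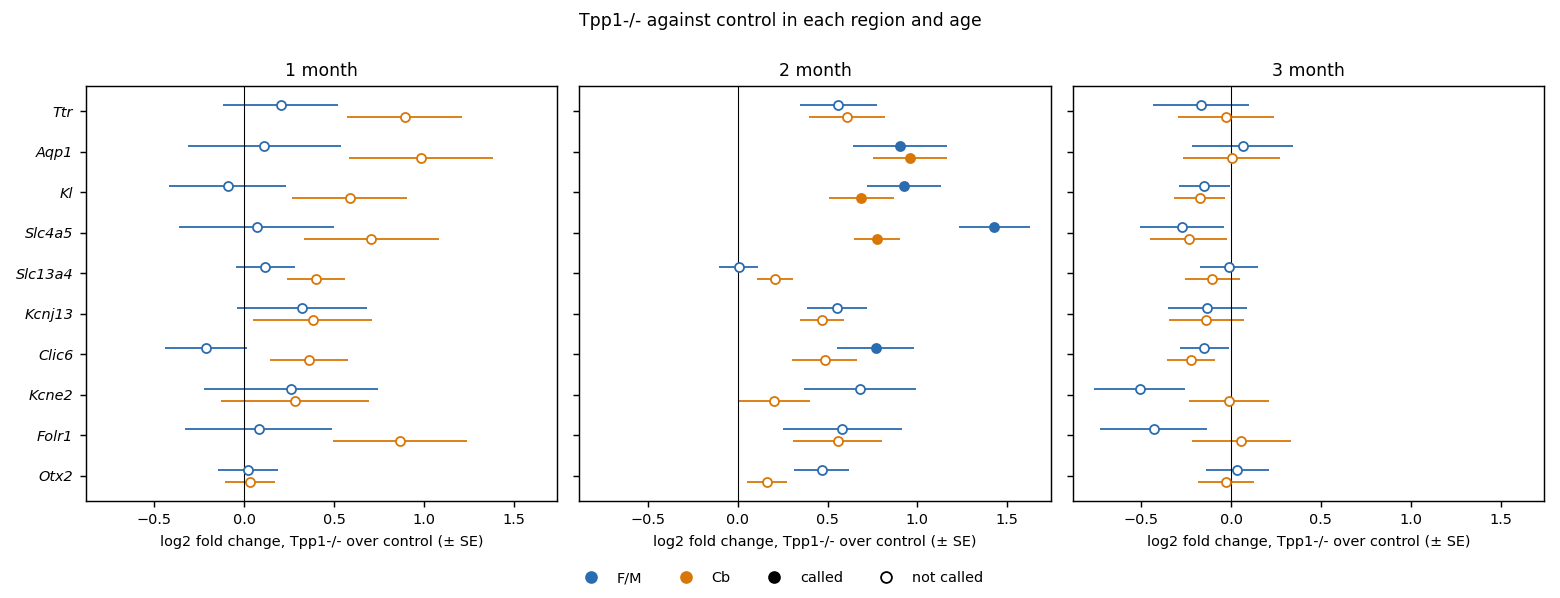
Log2 fold change of Tpp1-/- over control with its standard error for each member, by age (panels) and region (blue, F/M; orange, Cb); filled points passed the call. Filled points occur at 2 months alone, for Aqp1, Kl and Slc4a5 in both regions and for Clic6 in F/M, and the 3 month points scatter around 0 or below it.

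Whether the Tpp1-/- effect differed between the regions was tested as the difference of the log2 fold changes, Cb minus F/M. At 2 months no member passed (0 of 10, against 2.97% of all genes), and the median difference was -0.16. 1 member, Slc4a5, had an unadjusted p under 0.05, against 11.5% of all genes, so that 1 of 10 is near the background share. Its difference was the largest, -0.65 ± 0.24 (SE), with the wider change in F/M, and an adjusted p of 0.233. It passed without control F/M replicate 2 and without Tpp1-/- F/M replicate 2, at adjusted p of 0.0738 and 0.0650. At 1 month the differences were all above 0 but none passed (0 of 10, against 0% of all genes; median 0.61), and at 3 months none passed either (0 of 10, against 0.00581%). DESeq2 and limma-voom called none at any age, and 0 members had an unadjusted p under 0.05 at 1 month (against 1.94% of all genes) and at 3 months (against 3.51%). Missing the threshold does not show that the effects are equal.

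At 1 month no member was called by edgeR with the filter on low counts in either region, nor by DESeq2 or limma-voom, where 0.0112% of all genes were called in F/M and 0.0112% in Cb. At an unadjusted p under 0.05 stood 0 members in F/M, against 1.89% of all genes, and 4 in Cb, against 7.66%. Without the filter edgeR called 4 higher in Cb, against 0.176% of all genes: Ttr (adjusted p 6.30e-16), Aqp1 (0.00133), Folr1 (0.00488) and Slc4a5 (0.0322). In Cb all 10 log2 fold changes were above 0, with a median of 0.49 beside 0.00614 over all genes, but for none did the groups separate (0 of 10, against 4.26% of all genes). Ttr was at 827, 501 and 209 CPM in controls, against 817, 869 and 1165 CPM in Tpp1-/- mice. Replicate 1 of the controls reached the Tpp1-/- range, and replicate 3 lay far under all others (log2 fold change 0.89 ± 0.32 (SE), adjusted p = 0.630). Aqp1 was at 6.08, 3.29 and 0.906 against 5.29, 7.12 and 7.72 CPM, in the same order (log2 fold change 0.99 ± 0.40 (SE), adjusted p = 0.630). Slc4a5 was at 8.87, 5.63 and 3.99 against 5.71, 7.94 and 16.5 CPM, with Tpp1-/- replicate 3 well above the rest (log2 fold change 0.71 ± 0.38 (SE), adjusted p = 0.639). Kl was at 29.8, 21.4 and 10.7 against 20.7, 26.4 and 45.8 CPM and Clic6 at 28.8, 25.1 and 16.3 against 24.1, 27.0 and 39.0 CPM, both overlapping. Otx2 hardly differed between the groups, at 19.0, 16.6 and 16.8 against 18.5, 17.6 and 17.5 CPM (log2 fold change 0.031 ± 0.14 (SE), adjusted p = 0.961).

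The median of the members in Cb at 1 month rested on a few libraries: it was 0.27 without the Tpp1+/- control, 0.94 without control replicate 1 and 0.18 without Tpp1-/- replicate 3, and no member was called in any of these. In the Tpp1+/- library the marker sums of ependyma (29.6 CPM), stroma (114 CPM) and macrophages and blood (131 CPM) were also the lowest of the 3 controls, and their part in its low plexus genes was not tested. In F/M at 1 month the members lay on both sides of 0 (8 above and 2 below; median 0.096), and none separated its groups (0 of 10, against 8.31%). Kl, for example, stood at 13.9, 21.8 and 23.6 CPM in controls, against 21.3, 15.7 and 18.8 CPM in Tpp1-/- F/M, and Ttr at 300.3, 414 and 440.1 against 468, 411 and 451 CPM. These groups overlapped, and the low library was control replicate 1. Without it the median log2 fold change of the members was -0.063.

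At 3 months no member was called either by any of the 3 tools, in F/M (0 of 10, against 0.464% of all genes in edgeR) or in Cb (0 of 10, against 0.859%), and 0 members had an unadjusted p under 0.05 in either region, against 5.94% of all genes in F/M and 6.49% in Cb. The medians were -0.15 in F/M and -0.067 in Cb, with 8 of 10 members below 0 in each. In F/M no member had all its Tpp1-/- libraries above the controls (against 11.8%), while Kcne2 and Folr1 had all of them below, 2 of 10 against 12.3% of all genes. Kcne2 was at 4.43, 5.91 and 4.39 CPM in controls, against 2.86, 4.06 and 3.39 CPM in Tpp1-/- mice (log2 fold change -0.51 ± 0.25 (SE), adjusted p = 0.863). Folr1 was at 6.17, 5.66 and 5.52 against 3.35, 4.54 and 4.99 CPM (log2 fold change -0.43 ± 0.30 (SE), adjusted p = 1). Neither gap passed the test. The members called at 2 months overlapped here: Slc4a5 was at 7.54, 5.60 and 4.83 against 4.17, 5.63 and 5.09 CPM, Aqp1 at 5.15, 4.601 and 4.83 against 5.09, 6.17 and 4.01 CPM and Kl at 38.8, 36.7 and 30.4 against 32.0, 35.05 and 28.4 CPM. Of the marker lists, Prkcd of the midbrain and thalamus list was called lower in F/M (log2 fold change -0.81 ± 0.15), and none was called in Cb. In F/M the 10 midbrain and thalamus markers summed to 277 to 311 CPM in Tpp1-/- mice against 363 to 376 CPM in controls. The 8 macrophage and blood markers summed to 45.4 to 63.0 against 72.7 to 80.8 CPM. Neither pair of sums overlapped. Ependyma sums overlapped (31.4 to 40.2 against 27.1 to 34.8 CPM), as did stroma sums (82.1 to 91.5 against 81.7 to 88.7 CPM). The part of these markers in the members' levels was not tested.

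In Cb at 3 months the groups overlapped for every member, and none had the Tpp1-/- libraries all above the controls (against 4.46% of all genes). Ttr was at 836, 885 and 1386 CPM in controls, against 1583, 722 and 738 CPM in Tpp1-/- mice, with 1 high library in each group (log2 fold change -0.030 ± 0.27 (SE), adjusted p = 0.998). Aqp1 was at 3.94, 4.40 and 8.93 against 7.18, 4.87 and 5.26 CPM, with the same pair of libraries high (log2 fold change 0.0043 ± 0.27 (SE), adjusted p = 1). Kl stood at 31.3, 30.7 and 36.7 against 34.9, 24.0 and 28.5 CPM and Slc4a5 at 8.26, 9.13 and 14.6 against 8.86, 8.08 and 10.2 CPM. In the pair of high libraries the ependyma markers went opposite ways, summing to 29.0 CPM in control replicate 3, the lowest of its group, and to 60.1 CPM in Tpp1-/- replicate 1, the highest, while the macrophage and blood markers of control replicate 3 summed to 227 CPM, against 85.3 and 77.9 CPM in the other controls. Their part in the high plexus genes was not tested. The median of the members was 0.089 without control replicate 3, 0.040 without Tpp1-/- replicate 2 and -0.30 without Tpp1-/- replicate 1, and lay between -0.18 and -0.046 without each of the others.

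The change of the Tpp1-/- effect with age was tested over all 36 libraries on the 18322 genes tested among those common to the annotations. From 2 to 3 months the log2 fold change moved down for all 10 members in each region, with median differences of -0.86 in F/M and -0.62 in Cb. None passed in F/M (0 of 10, against 0.393% of all genes) or in Cb (0 of 10, against 1.44%). Slc4a5 came nearest, at -1.69 ± 0.49 (SE) in F/M with an adjusted p of 0.211. From 1 to 2 months the median difference was 0.48 in F/M (0 of 10 called, against 0.0218% of all genes) and 0.025 in Cb (0 of 10, against 1.28%). At an unadjusted p under 0.05 stood 3 members in F/M (against 8.12% of all genes) and 3 in Cb (against 6.41%) for the step from 2 to 3 months. For the step from 1 to 2 months there were 3 in F/M (against 8.81%) and 0 in Cb (against 8.85%), and DESeq2 and limma-voom called none for either step. Without the filter on low counts, edgeR called 6 members in F/M (against 0.512% of all genes called lower) and 5 in Cb (against 0.234%), all lower, for the step from 2 to 3 months, and 3 in F/M, all higher (against 0.454% of all genes called higher), for the step from 1 to 2 months. That fit gave far smaller p-values even where groups overlapped: for Ttr in Cb at 1 month the adjusted p was 6.30e-16 without the filter and 0.630 with it, and the cause was not tested. With the filter, the calls at 2 months were not shown to differ from the lack of calls at the other ages. The 2 month effects enter both differences, and age cannot be told apart from the annotation, strand setting and sex make-up of the groups, which changed with it. From 2 to 3 months the effect moved down in F/M for all 10 midbrain and thalamus markers (median -0.57). In Cb it moved up for 8 of them (median 1.47). Called were 1 in F/M, against 0.393% of all genes, and 5 in Cb, against 1.44%. Their part in the change of the members was not tested.

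In control mice the plexus genes tended to be higher in Cb than in F/M, most clearly at 2 months. Then 9 of the 10 were called higher in Cb, against 17.4% of all genes, with a median log2 fold change of 1.501. Slc4a5 had the widest gap (1.505, 2.46 and 1.83 CPM in F/M, against 11.4, 10.8 and 12.5 CPM in Cb; log2 fold change 2.58 ± 0.17 (SE), adjusted p = 1.63e-10), followed by Kcne2 (1.08, 2.56 and 1.83 against 10.4, 8.45 and 9.54 CPM; log2 fold change 2.37 ± 0.25). The 1 member not called was Slc13a4, whose fold of 1.38 lay under the minimum (adjusted p = 5.80e-04).

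At 1 month 5 members were called higher in control Cb (against 15.8% of all genes) and at 3 months 4 (against 17.8%). Over all genes, same-numbered control libraries of both regions deviated together only weakly at 1 month (r of 0.168, 0.1003 and 0.107 for numbers 1, 2 and 3). The members' own mean log2 level, relative to their age and region, was 0.39 in Cb and -0.46 in F/M for number 1. It was -0.23 and 0.12 for number 2, and -1.15 and 0.17 for number 3. With a block that joins these libraries by number 3 members were called, without Kcnj13 (adjusted p 0.109) and Clic6 (log2 fold change 0.58, under the fold minimum). DESeq2 called 4 and limma-voom 2 at 1 month. Otx2, Slc4a5 and Kcne2 were called at each age by edgeR. At 1 month the call of Kcne2 was lost with limma-voom (adjusted p 0.149) and without Cb control replicate 1 (0.226), and that of Slc4a5 without F/M control replicate 1 (0.214) or Cb control replicate 1 (0.265). Otx2 had a wide gap at each age: 3.38, 4.76 and 4.69 CPM in control F/M, against 19.0, 16.6 and 16.8 CPM in control Cb at 1 month, and 5.45, 6.22 and 5.27 against 17.2, 16.2 and 12.3 CPM at 3 months, with no overlap at any age. Its log2 fold changes were 2.02 ± 0.15, 2.05 ± 0.13 and 1.43 ± 0.17 (SE) at 1, 2 and 3 months. Within Cb, however, Otx2 followed the mean of the other members with an r of 0.217 only. Kl differed little at 1 month (log2 fold change 0.051 ± 0.32) and 3 months (-0.10 ± 0.14), against 1.41 ± 0.20 at 2 months; these ages were not tested against each other. The count at 1 month was 2 without F/M control replicate 1 and 1 without Cb control replicate 1, with Otx2 called in both, and the count at 3 months was 2 without Cb control replicate 3, where Ttr (log2 fold change 0.53) and Slc4a5 (0.54) were lost.

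**Figure D4:**
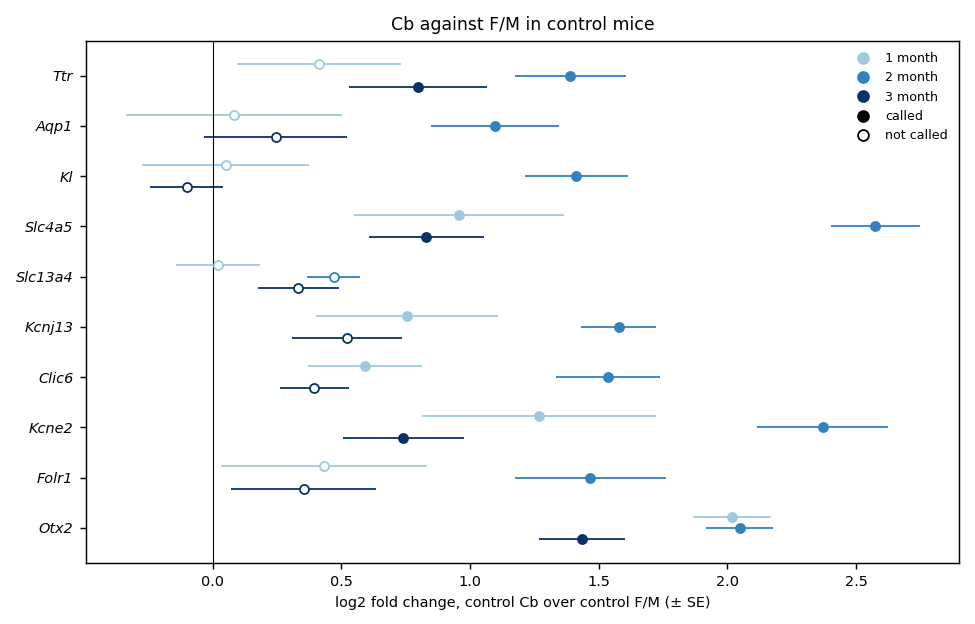
Log2 fold change of control Cb over control F/M with its standard error for each member, by age (light to dark blue, 1 to 3 months); filled points passed the call. Points at 2 months lie farthest right for most genes, while Otx2 lies between 1.43 and 2.05 at every age.

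The rest of the plexus epithelium was read through 20 further genes known from that tissue, some of which the study named from these samples and which are therefore no independent evidence of direction. In Cb at 2 months 11 of the 20 were called higher and none lower (median log2 fold change 0.66, all 20 above 0), beside 0.250% of all genes called higher, and in F/M 8 were called higher and none lower (median 0.70, 19 above 0), beside 0.650%. None of the 20 was called in either region at 1 or 3 months, which is near the share of all genes called (0.0112% in F/M and 0.0112% in Cb at 1 month, 0.464% and 0.859% at 3 months), and there the medians were, for F/M and Cb in turn, 0.035 and 0.64 at 1 month, and -0.054 and 0.014 at 3 months. Prlr, the prolactin receptor, was at 16.0, 17.05 and 17.3 CPM in control Cb of 2 months and 36.7, 28.8 and 28.3 CPM in Tpp1-/- Cb (log2 fold change 0.90 ± 0.14, adjusted p = 5.63e-04). In F/M it was at 6.91, 11.3 and 8.80 against 22.3, 16.0 and 20.9 CPM (log2 fold change 1.13 ± 0.16, adjusted p = 0.00202). Both pairs of groups were separate. Mfrp, a frizzled-related membrane protein, was also called in both regions, by 1.02 ± 0.25 in Cb and 1.54 ± 0.38 in F/M on the log2 scale. Its F/M groups overlapped, with Tpp1-/- replicate 2 at 1.83 CPM and control replicate 2 at 2.66 CPM. The BMP and Wnt antagonist Sostdc1 (log2 fold change 0.92 ± 0.18) and the melanosomal transporter Oca2 (1.53 ± 0.26) were called in Cb, and Tmem72 (1.24 ± 0.23) and coagulation factor F5 (1.43 ± 0.33) were among those called in F/M. The F/M groups of F5 also overlapped, with Tpp1-/- replicate 2 at 5.24 CPM and control replicate 2 at 5.31 CPM.

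General pumps and carriers of ion, water and solute transport were read as a further list. Of 20 such genes, which include the sodium pump subunit Atp1b1, the chloride cotransporter Slc12a2 and the carbonic anhydrases Car2, Car12 and Car14 and are used by many brain cells, none was called for Tpp1-/- against control in either region at any age. Over all genes 0.250% were called higher in Cb and 0.650% in F/M at 2 months, so that a count of 0 of 20 is near the background share, and the lists were not tested against each other. At 2 months the median log2 fold change of the 20 was 0.10 in Cb and 0.15 in F/M. Their summed level was 4489 to 4515 CPM in Tpp1-/- Cb and 4376 to 4529 CPM in control Cb of that age, which overlapped, and 3366 to 3634 CPM in Tpp1-/- F/M against 3766 to 3855 CPM in control F/M, where the Tpp1-/- sums all lay lower. In control mice 7 of the 20 were called higher and 2 lower in Cb than in F/M at 2 months, against 17.4% and 21.9% of all genes. Of the higher ones the change was widest for the nucleoside and monoamine transporter Slc29a4 (log2 fold change 1.43 ± 0.12).

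The genes whose level followed the members most closely over the 36 libraries, after the mean of each age and region was taken off and with the members themselves set aside, were Enpp2 (r = 0.951), Mfrp (r = 0.919), Tmem72 (r = 0.884), Sostdc1 (r = 0.874), Cldn2 (r = 0.867), Calml4 (r = 0.863), Drc7 (r = 0.856), Slc39a4 (r = 0.854), Abca4 (r = 0.849) and Rbm47 (r = 0.843), out of 18322 genes. Of these, Enpp2, Mfrp, Tmem72, Sostdc1, Cldn2, Calml4 and Abca4 stand in the list of 20 further plexus genes. Enpp2 encodes autotaxin, a secreted enzyme that makes lysophosphatidic acid, and Cldn2 the claudin of leaky tight junctions. Within the 18 controls the r of Enpp2 was 0.981 and within the 18 Tpp1-/- libraries 0.945. By age it was 0.962, 0.948 and 0.928, while that of Tmem72 went from 0.969 at 2 months to 0.240 at 3 months. The ranking describes these libraries and carries no test.

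Members were also set against each other, by taking the mean relative level of the other 9 off each gene in each library. In Cb at 2 months Aqp1 was ahead of the other 9 by 0.51 on the log2 scale, Slc4a5 by 0.30 and Kl by 0.20, while Otx2 (-0.38), Kcne2 (-0.36) and Slc13a4 (-0.33) were below them. The measure is centred on the members, so that some must come out below the others where some are above: Otx2's own log2 fold change there was 0.16. In F/M at 2 months the difference was 0.78 for Slc4a5 and -0.78 for Slc13a4. In F/M at 1 month it was -0.19 for Kl and -0.32 for Clic6, and in F/M at 3 months it was -0.38 for Kcne2 and 0.23 for Otx2. In Cb at 1 month Aqp1 (0.75), Folr1 (0.49) and Ttr (0.47) were ahead of the other 9, while Otx2 (-0.70) and Clic6 (-0.32) were among those below. The controls there were widely spread, with an SD of 0.71 for Aqp1 on this measure. These differences are descriptions with no test, and no share over all genes was computed for them, since the genes of a library share that library's sample.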

How the data were processed

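Deposited values were whole-number counts of reads per gene and library. Per the labels, the methods and the file headers, the authors extracted RNA with TRIzol and RNeasy columns, made TruSeq stranded mRNA libraries, sequenced single 50-nucleotide ends, aligned them to GRCm38 (mm10) with STAR 2.5.2b and counted with featureCounts. The headers name version 1.6.3 with GENCODE M21 at 1 month, 1.6.2 with M16 at 2 months and 1.6.2 with M18 at 3 months. The labels name featureCounts 1.26.1 instead, and the methods a version that differs from both. Fractional counting is set in the headers, yet all counts were whole.

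From the counts, edgeR 4.0.16 (R 4.3.3) gave TMM-scaled CPM and quasi-likelihood F tests per age over its 12 libraries, after filterByExpr on the 4 groups, with Benjamini-Hochberg adjustment over all genes tested (17916, 17229 and 17224). Differences between ages came from 36 libraries. Standard errors are the log2 fold change divided by the square root of F. A call needed an adjusted p under 0.1 and a fold of at least 1.5, with no fold minimum for differences between effects. Control and Tpp1-/- libraries of the same number deviated together with a median r of 0.0562 (-0.0631 to 0.185; 5 of 18 over 0.1), and same-numbered libraries share their sex label at 1 and 3 months; blocks by number were alternatives. The p-values measure the spread between these mice. Depth limits precision most for Kcne2, Folr1, Slc4a5 and Aqp1, whose lowest counts were 23 to 27 reads. Alternatives were DESeq2 1.42.0, limma 3.58.1 (voom), RLE factors, library totals, no filter, no fold minimum, fits of 6 libraries, blocks, and leaving out each library. The script was tested on simulated data. Named were all members, Tpp1, up to 4 called genes per list by size of change, and the 10 closest genes by correlation. Members, lists and tests were chosen with earlier results of these data known. 1 result of the list of transport genes is not reported here.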

Additional observations from a re-analysis of the deposited data

How the results depend on the processing

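No direction of a called member reversed under any alternative run. Without the filter on low counts, 4 members were called higher in Cb at 1 month (against 0.176% of all genes), 1 in the region difference at 1 month (0.0746%), 3 for the step from 1 to 2 months in F/M (0.454%), and 6 in F/M (0.512%) and 5 in Cb (0.234%), all lower, for the step from 2 to 3 months. At 2 months it added Ttr in Cb (adjusted p 2.48e-16) and Kcne2 in F/M (0.0459). DESeq2 and limma-voom called none of these, that fit gave far smaller p-values than the filtered one (Ttr in Cb at 1 month, adjusted p 6.30e-16 against 0.630), and the cause was not tested. In F/M at 2 months, 2 members were called with the replicate block (adjusted p of 0.160 for Aqp1 and 0.158 for Clic6) and 1 with the 6 libraries alone. For Cb against F/M controls at 1 month, 2 were called by limma-voom, 2 by all 3 tools alike and 3 with a block that joins the regions by replicate number, as if each number were 1 mouse, which the labels do not state. With 1 library left out, the members called ranged from 1 to 8 in F/M and 2 to 3 in Cb at 2 months, from 0 to 1 for their difference, and from 1 to 7, 9 to 10 and 2 to 5 for Cb against F/M controls at 1, 2 and 3 months. In single members, the call of Clic6 in F/M at 2 months was lost with DESeq2 (adjusted p of 0.133), that of Aqp1 with library totals (0.101), and that of Kl in Cb with DESeq2 (0.272) and with the replicate block (0.148); Ttr in Cb was called with the 6 libraries alone (0.00114). Same-numbered libraries share their sex label at 1 and 3 months. Their deviations over all genes had a median r of 0.0562 between control and Tpp1-/- libraries. Between regions it was 0.0381 (-0.0356 to 0.168, with 4 of 18 over 0.1). A call lost under a block is not read as a weaker effect. The control pairs of 1 month were among those over 0.1 (0.168, 0.1003 and 0.107), and the part of pairing in the calls lost there was not tested. Where a library was left out, its group kept 2, and the spread was pooled over the other groups.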

Other observations

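Pineal and pituitary genes, of which 4 of 8 were tested and none called at 3 months, were unevenly spread at that age. The 8 pineal and pituitary markers summed to 45.3 CPM in Tpp1-/- replicate 3 and 11.6 CPM in replicate 2 of F/M, and to 38.2 and 6.01 CPM in the Cb libraries of the same numbers, against 0.561 to 3.87 CPM in the 6 control libraries of that age. The median position of the plexus members was -0.21 in F/M and -0.13 in Cb of replicate 3 on the log2 scale, and 0.066 in F/M and -0.30 in Cb of replicate 2, whose F/M library was the highest of its group for 7 of the 10 members. The pineal genes Asmt and Crx were at 3 counts or fewer in all of them.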
